A study of Mus musculus with 4 samples.

Results

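The lymphocytes described here are the cell barcodes with at least 1 unique molecular identifier (UMI, 1 counted RNA molecule) of Ncr1 among CD45+ cells of mouse small-intestinal crypts. Barcodes in which 300 or more genes were seen, and no more than 10% of UMIs were mitochondrial, were kept. Those with Ncr1 and 0 UMIs of Cd8b1, Cd4, Cd79a and Siglech were taken, which gave 259 of 68087 kept barcodes (0.380%). A barcode with any UMI of Cd3e, Cd3d or Cd3g, the CD3 chains of the T cell receptor complex, was called CD3-positive (141 barcodes), and one with none CD3-negative (118 barcodes). Of 292 barcodes with Ncr1, 33 were left out through the other genes, 17 of them through Cd8b1 and 15 through Cd79a, and 13 of the 33 carried a single UMI of those genes. Among the 259, 111 had 1 UMI of Ncr1, 48 had 2 and 100 had 3 or more; among the CD3-positive ones, 31 had 1 UMI of the Cd3 genes and 110 had 2 or more. These 8 genes chose the cells, so their levels are a description, and they were left out of every test.

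Male-labelled mice received a diet high in cysteine, titled Cystine (2 samples), or a control diet (2 samples), and 10x Genomics 5′ libraries were made from CD45+ cells sorted from crypts. Groups were taken from the sample titles; the treatment field reads Control for all samples, the genotype field holds only the word Male, and strain, age and the time on the diet are not given in the sources used here. Nor do the labels say whether a sample was 1 mouse or a pool, or whether samples came from separate animals, so the p-values describe spread among 4 libraries, part of which may be technical.

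Ncr1 encodes NKp46, an activating receptor of natural killer (NK) cells, of group 1 innate lymphoid cells and of a part of group 3 innate lymphoid cells, all of which lack a rearranged T cell receptor. NK cells read self molecules through families of lectin-like receptors, among them the Ly49 receptors (Klra genes), NKG2 receptors (Klrc genes, paired with CD94 from Klrd1, and Klrk1, which does not pair with CD94) and the NKR-P1 receptors (Klrb1 genes), and kill with perforin and granzymes. T cells of the gut epithelium can carry NK receptors too, mostly γδ T cells and T cells with a CD8αα homodimer, so an NK receptor alone does not separate the lineages.

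The samples held 27229695 to 31301936 UMIs over 15391 to 19351 barcodes, for a stated load of 18000 cells each, and the kept barcodes had medians of 1355 to 1758 UMIs. Any 2 libraries shared 334 to 451 kept barcode sequences. Scrublet, a doublet caller run at 0.8% per 1000 barcodes, marked 44 of the 259 lymphocytes. They were kept, and results without them were computed. Unmarked were 16324 of 19306 and 14379 of 16578 kept barcodes in cystine samples 1 and 2. In control samples 1 and 2 these were 14563 of 16829 and 13483 of 15374. In the same sample order, 19 of 27, 37 of 47, 40 of 46 and 18 of 21 CD3-positive lymphocytes were unmarked. Of CD3-negative ones, 26 of 38, 31 of 34, 23 of 23 and 21 of 23 were. Ncr1 was seen in 2 of 2298 B cells (0.087%, 95% exact binomial interval 0.0105% to 0.314%). B cells were barcodes with Cd79a and Ms4a1 and no Cd3 UMI, with a median depth of 1188 to 1324.5 UMIs by sample. That share of 0.087% was taken as a measure of free Ncr1 RNA in the droplets, which was not tested. Among barcodes that lack the 4 exclusion genes, Ncr1 was seen in 141 of 51639 CD3-positive ones (0.273%, 0.230% to 0.322%). In CD3-negative ones it was seen in 118 of 1252 (9.42%, 7.86% to 11.2%). The interval of the CD3-positive barcodes overlaps that of the B cells, and the interval of the CD3-negative ones does not. Such intervals cover counting error only. In 4 lymphocytes at least 2% of UMIs came from markers of epithelial, myeloid, mast, plasma or B cells. One of them, a CD3-positive barcode of control sample 1 with 17018 UMIs, held 14.6% of all UMIs of its class in that sample, including 1406 of 1407 UMIs of Fabp6, 1881 of 1885 of Reg3b and 185 of 186 of Mcpt1, which are epithelial and mast cell genes. The 2 CD3-negative ones, both of cystine sample 2, held 8.26% and 2.03% of the UMIs of their class. All 116 UMIs of monocyte or macrophage markers in CD3-negative lymphocytes stood in 1 barcode of that sample (2010 CPM there and 0 CPM in the other 3 samples), against 1 UMI in CD3-positive lymphocytes.

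Levels below are CPM, the UMIs of a gene per 1000000 UMIs summed over the barcodes of a class in a sample. Values per sample stand in the order cystine 1, cystine 2, control 1 and control 2. Summed UMIs came to 197767 in CD3-negative and 340197 in CD3-positive lymphocytes, so a gene of low level rests on few molecules. The 3 other marker genes of the label were present: Klrb1c, which encodes NK1.1, was seen in 70 of 118 CD3-negative and 79 of 141 CD3-positive lymphocytes, Klre1 in 50 and 50, and Klra7, which encodes Ly49G, in 22 and 28. In B cells Klrb1c was seen in 6 of 2298 barcodes, Klre1 in 4 and Klra7 in 0, which allows a share of up to 0.131%.

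T cell receptor RNA was seen less in CD3-negative lymphocytes, which the rule chose by other chains of the same receptor complex. Of the CD3-negative lymphocytes, 82 of 118 (69.5%) had no UMI of the constant genes Trdc (δ chain), Trac (α chain), Trbc1 or Trbc2 (β chain). Of the rest, 33 had α or β RNA alone (6 of them with Trac), 3 had Trdc alone and 0 had both. Of the CD3-positive ones, 46 of 141 (32.6%) had none of these genes, 56 had α or β RNA alone (31 of them with Trac), 31 had both and 8 had Trdc alone. In CD3-positive barcodes with 0 UMIs of Ncr1 and of the same 4 exclusion genes (Ncr1-negative T cells, 51498 barcodes), 19.6% had none. CD3-positive lymphocytes were read more deeply, with median UMIs of 1762, 2510, 1879 and 2375, against 1337, 1502, 1363 and 1738 in Ncr1-negative T cells. CD3-negative lymphocytes had medians of 1382.5, 1520, 1766 and 1585 UMIs. At 1500 UMIs or more the shares with none were 70.0% in CD3-negative lymphocytes and 27.1% in CD3-positive ones, against 2791 of 25361 Ncr1-negative T cells. Constant genes of the γ chain were not counted in these shares. Tcrg-C4 was seen in 33 of 118 CD3-negative and 58 of 141 CD3-positive lymphocytes, Tcrg-C1 in 10 and 49, and Tcrg-C2 in 6 and 41.

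**Figure D1:**
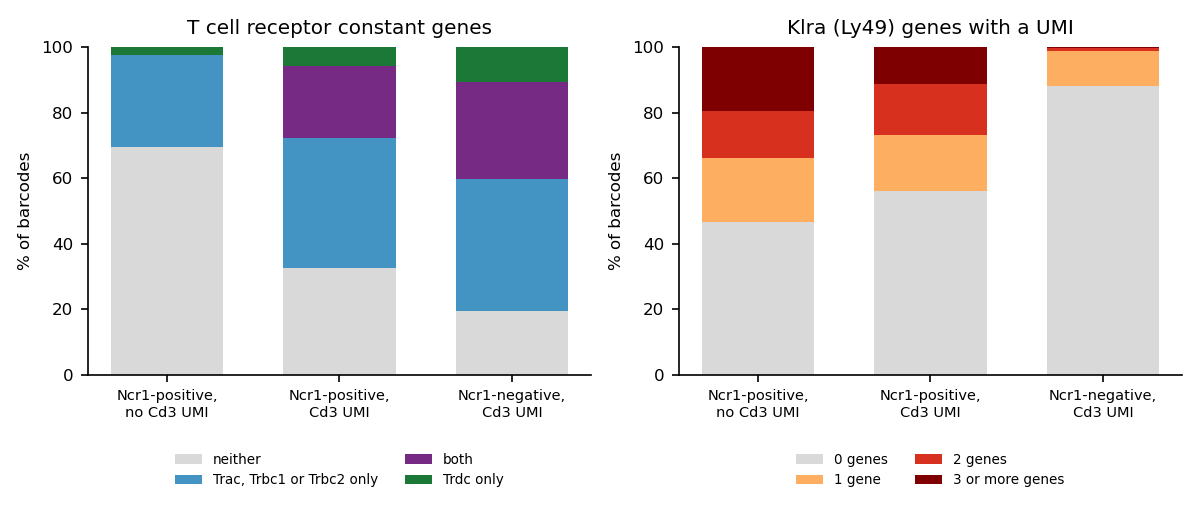
Stacked bars give the percentage of barcodes of each class by T cell receptor constant genes seen (left) and by the number of Klra (Ly49) genes with a UMI (right), over all 4 samples. CD3-negative lymphocytes most often lack RNA of Trdc, Trac, Trbc1 and Trbc2 (69.5%), and γ chain genes were not counted. Barcodes with 3 or more Klra genes make up 19.5% of CD3-negative and 11.3% of CD3-positive lymphocytes and 0.159% of Ncr1-negative T cells.

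Single NK cells are known to express Ly49 genes in combinations. At least 1 Klra gene was seen in 63 of 118 CD3-negative lymphocytes and 62 of 141 CD3-positive ones; 3 or more were seen in 23 and 16 of them, and at most 5 in 1 barcode. Among Ncr1-negative T cells 88.0% had no Klra gene, 10.9% had 1 and 0.159% had 3 or more. Cystine sample 1 was lowest in the Ncr1-positive lymphocytes, with 3 or more Klra genes in 2 of its 38 CD3-negative and 0 of its 27 CD3-positive barcodes. Klra genes are near-identical copies, and how reads that fit several copies were counted is not given in the sources used here, so single Klra genes are uncertain.

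CD3-positive lymphocytes were then compared with Ncr1-negative T cells, to show which genes accompany Ncr1 in barcodes with Cd3 RNA. Both classes were CD3-positive and chosen by the same exclusion genes. Of CD3-positive lymphocytes, 32.6% had no UMI of Trdc, Trac, Trbc1 or Trbc2, against 19.6% of Ncr1-negative T cells. Whether all CD3-positive lymphocytes are T cells was not tested. UMIs were summed per sample and class and tested with edgeR's quasi-likelihood test, with the sample as a block, over 11942 genes. The genes that rose included 16 lectin-like NK receptors, of the Klra, Klrb1, Klrc and Klrk families among others, and those that fell included T cell receptor chains, Cd8a and the granzymes A and B. At a Benjamini-Hochberg adjusted p below 0.05, 106 genes were higher in CD3-positive Ncr1-positive lymphocytes and 136 were lower, which is 0.888% and 1.14% of genes tested (2.03% together), with 1252 genes at an unadjusted p below 0.05. With DESeq2 size factors in place of TMM scaling 100 were higher and 218 lower, and DESeq2's Wald test called 95 higher and 27 lower. The median log2 fold change over all genes tested was -0.25 with TMM, -0.33 with DESeq2 size factors and -0.01 with the Wald test, and changes are to be read against that. Without control sample 1, whose class holds the barcode of 17018 UMIs, 52 were higher and 49 lower, 91 of these 101 genes being among the 242; without cystine sample 2, 98 were higher and 44 lower, 116 of these 142 being among the 242; without the 4 lymphocytes and the other barcodes rich in markers of other cell types, 89 were higher and 121 lower.

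Of 27 lectin-like NK receptor genes listed, 25 were found under their names and 21 tested; 16 were higher and 1, Klra5, was lower, with a median log2 fold change of 4.29. Klra4 (Ly49D, an activating receptor) had 18.4, 143, 198 and 98.5 CPM in CD3-positive lymphocytes, against 0.227, 0.587, 0.362 and 0.0384 CPM in Ncr1-negative T cells. Klra8 (Ly49H, the activating receptor for a mouse cytomegalovirus protein) had 55.1, 168, 181 and 118 CPM, against 0.227, 0.587, 0.951 and 0.231 CPM in Ncr1-negative T cells. Klra9 had 55.1, 118, 68.8 and 78.8 CPM, against 0.510, 0.391, 0.906 and 0.461 CPM in Ncr1-negative T cells. In all samples both groups stood apart by far. Their log2 fold changes were 8.43 (SE 0.87, adjusted p = 3.23e-19, edgeR) for Klra4, 7.93 (SE 0.80, adjusted p = 6.47e-20) for Klra8 and 6.98 (SE 0.79, adjusted p = 9.67e-16) for Klra9.

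Klrk1, which encodes the activating receptor NKG2D, had 202, 362, 249 and 315 CPM in CD3-positive lymphocytes, against 3.29, 5.28, 4.75 and 4.50 CPM in Ncr1-negative T cells, a log2 fold change of 5.81 (SE 0.38, adjusted p = 8.13e-49). Klrc1, which encodes NKG2A, the inhibitory partner of CD94, had 36.8, 185, 120 and 138 CPM, against 2.61, 3.28, 4.75 and 3.65 CPM in Ncr1-negative T cells (log2 fold change 4.89, SE 0.57, adjusted p = 6.92e-15). Klrb1c had 331, 396, 413 and 670 CPM, against 17.9, 24.3, 19.7 and 17.8 CPM in Ncr1-negative T cells (4.29, SE 0.21, adjusted p = 3.22e-88). By the rule for naming genes, Klrb1b (7.03), Samd3 (6.22), Klri2 (6.15), Klrb1f (4.70), Klrg1 (4.31) and Klra1 (3.90) also rose. These 12 genes kept their call in every one of the 14 alternatives in which they were tested.

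The marker genes Klra7 and Klre1 rose by less, with log2 fold changes of 3.54 (SE 0.36) and 2.83 (SE 0.24). Klre1 had 36.8 CPM in cystine sample 1 and 275 to 387 CPM in the other 3 samples, against 27.8 to 42.6 CPM in Ncr1-negative T cells, so cystine sample 1 lay within the range of the Ncr1-negative T cells. Klrd1, the CD94 chain, did not pass: it had 790, 901, 877 and 1142 CPM in CD3-positive lymphocytes, against 748, 694, 841 and 1109 CPM in Ncr1-negative T cells (log2 fold change -0.02, SE 0.17, adjusted p = 0.975). The adaptor genes Fcer1g (-0.11, SE 0.16, adjusted p = 0.839) and Tyrobp (0.34, SE 0.16, adjusted p = 0.408) did not pass either, with 3182 to 4171 CPM of Fcer1g in CD3-positive lymphocytes and 3242 to 3719 CPM in Ncr1-negative T cells. In B cells Fcer1g had 37.4 to 203 CPM.

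**Figure D2:**
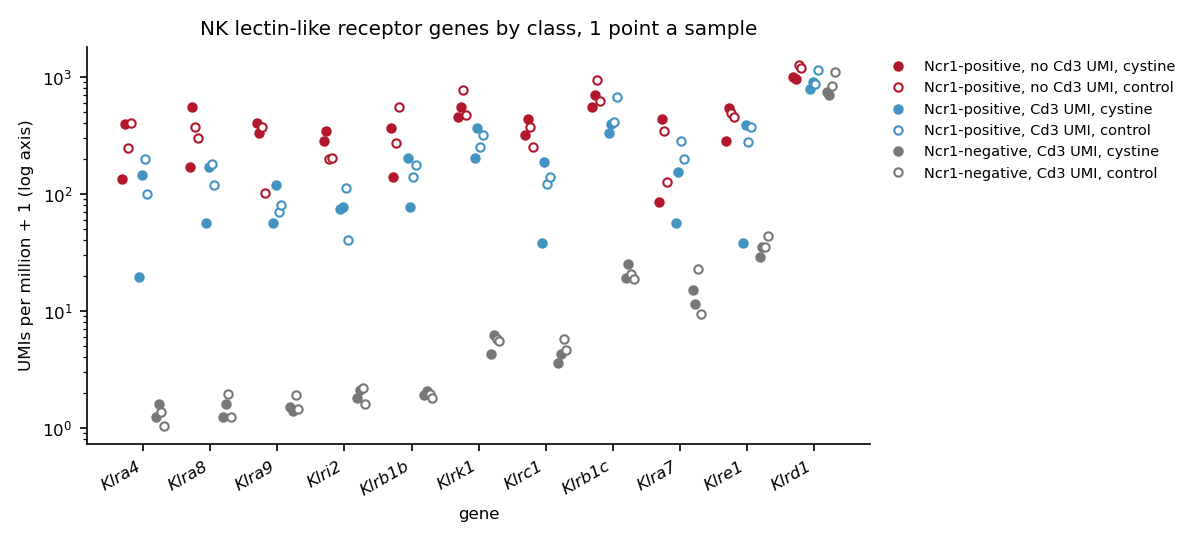
Each point is the level of a gene in 1 sample, in CPM plus 1 on a log axis, for CD3-negative lymphocytes (red), CD3-positive lymphocytes (blue) and Ncr1-negative T cells (grey), with filled symbols for the cystine diet and open ones for the control diet. Klra4 to Klrb1b lie near 1 in Ncr1-negative T cells and at 18.4 CPM or more in the Ncr1-positive classes, whereas Klrd1 lies between 694 and 1263 CPM in all 3 classes.

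Part of the genes that rose lie together in the genome. By gene order in RefSeq (GRCm38.p6, used here for chromosomes and neighbours only, as the files are of another build), 16 of the 104 matched genes that rose lie on chromosome 6 between Klrb1a and Klra1, the NK gene complex. In that interval lie 30 of the 11607 matched genes tested, and all of the 16 but Clec2h are receptors counted above. On chromosome 6 as a whole lay 22 of the 104 (21.2%), against 5.15% of the matched genes tested. Of the 135 matched genes that fell, 14 (10.4%) lay there. Gm156, which RefSeq names Klrh1 and which lies in the same interval, fell: it had 55.1, 8.42, 8.60 and 19.7 CPM in CD3-positive lymphocytes, against 143, 137, 107 and 96.8 CPM in Ncr1-negative T cells (log2 fold change -2.90, SE 0.42, adjusted p = 2.78e-09). Klra5, of the same interval, fell as well, while 16 of its genes rose.

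Upstream sequence of Ncr1 and of 3 receptor genes that rose is shown because Ncr1 chose the cells and these 3 genes rose beside it. These are the 250 bases before the first listed transcription start (RefSeq, GRCm38.p6), 5′ to 3′ on the gene's strand, for Ncr1 (chr7:4337465-4337714, plus strand), Klrb1c (chr6:128788642-128788891, minus strand), Klrk1 (chr6:129623865-129624114, minus strand) and Klra8 (chr6:130129899-130130148, minus strand). Capitals mark TGTGGT, a motif bound by RUNX factors, and GTGTGA, a core of the motif bound by T-box factors such as T-bet and Eomes, on either strand.
Ncr1: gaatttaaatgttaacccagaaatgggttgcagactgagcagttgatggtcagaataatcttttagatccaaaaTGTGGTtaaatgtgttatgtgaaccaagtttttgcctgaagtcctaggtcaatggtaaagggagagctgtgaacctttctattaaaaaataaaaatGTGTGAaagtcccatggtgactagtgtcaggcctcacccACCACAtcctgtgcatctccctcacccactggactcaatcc
Klrb1c: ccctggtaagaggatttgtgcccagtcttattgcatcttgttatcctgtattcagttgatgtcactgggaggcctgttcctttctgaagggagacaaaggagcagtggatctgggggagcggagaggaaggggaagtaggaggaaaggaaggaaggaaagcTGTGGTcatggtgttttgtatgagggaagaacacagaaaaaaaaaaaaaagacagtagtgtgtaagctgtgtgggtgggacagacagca
Klrk1: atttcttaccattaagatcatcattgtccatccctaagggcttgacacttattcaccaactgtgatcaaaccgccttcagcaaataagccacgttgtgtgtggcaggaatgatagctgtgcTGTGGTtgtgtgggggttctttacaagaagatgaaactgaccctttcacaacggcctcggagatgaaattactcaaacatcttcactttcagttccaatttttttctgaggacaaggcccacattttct
Klra8: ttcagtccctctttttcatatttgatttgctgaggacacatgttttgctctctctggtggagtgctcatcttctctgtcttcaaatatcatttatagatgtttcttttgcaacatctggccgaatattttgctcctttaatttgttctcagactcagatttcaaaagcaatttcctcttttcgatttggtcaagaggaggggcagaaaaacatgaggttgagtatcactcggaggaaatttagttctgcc

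The motifs do not overlap in these windows. TGTGGT stands 2 times before Ncr1, once before Klrb1c and once before Klrk1, and is not in the window of Klra8; 14.0% of 32851 RefSeq windows of this length hold it. GTGTGA stands once before Ncr1 and is not in the other 3 windows, against 12.3% of all windows. A match is letters only.

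Genes of the T cell receptor and of epithelial T cells fell in CD3-positive lymphocytes relative to Ncr1-negative T cells. Of 5 γδ constant genes tested 4 fell, and of 3 αβ constant genes all 3 fell. Trbc2 lost its call in 8 of 14 alternatives, Tcrg-C4 in 7 and Trbc1 in 5, the omission of control sample 1 and of cystine sample 2 among them for each gene. Trdc had 165, 160, 189 and 217 CPM, against 364, 389, 439 and 385 CPM in Ncr1-negative T cells (log2 fold change -1.29, SE 0.21, adjusted p = 2.57e-07). Cd8a had 1139, 834, 499 and 867 CPM, against 2117, 2192, 1964 and 2380 CPM in Ncr1-negative T cells (-1.60, SE 0.17, adjusted p = 1.65e-17). Itgae, the CD103 integrin that holds T cells in the epithelium, had 662, 413, 464 and 473 CPM, against 923, 995, 1062 and 846 CPM in Ncr1-negative T cells (-1.13, SE 0.18, adjusted p = 7.22e-08). No sample of either group overlapped the other in these 3 genes. Cd8a was still seen in 68 of 141 CD3-positive lymphocytes and in 83.2% of Ncr1-negative T cells, while 7.66% of B cells carried it.

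Of 19 cytotoxic genes tested 2 rose, Prf1 and Gzmc, and 3 fell, Gzma, Gzmb and Gzmk. Gzmc had 108 UMIs in 10 of 141 CD3-positive lymphocytes, 63 of them in 1 barcode of cystine sample 1. Prf1, perforin, was higher, at 110, 253, 94.6 and 670 CPM in CD3-positive lymphocytes, against 71.1, 84.2, 76.1 and 89.5 CPM in Ncr1-negative T cells (log2 fold change 1.41, SE 0.22, adjusted p = 4.96e-08). Gzma, granzyme A, was lower, at 27673, 18630, 13348 and 17413 CPM, against 32771, 32850, 30927 and 39613 CPM in Ncr1-negative T cells (-1.04, SE 0.18, adjusted p = 6.08e-07; without control sample 1, adjusted p = 0.159). Gzmb, granzyme B, was lower as well, at 4171, 2847, 2769 and 3703 CPM, against 5509, 5982, 5669 and 7461 CPM in Ncr1-negative T cells (-1.06, SE 0.16, adjusted p = 4.60e-08). Every sample pointed the same way in these 3 genes, and B cells carried 231 to 848 CPM of Gzma and 43.6 to 215 CPM of Gzmb as background.

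Gzmk, granzyme K, was lower (-1.41, SE 0.29, adjusted p = 0.000124), but not without control sample 1 (adjusted p = 0.0858). The chemokine gene Xcl1, which attracts cross-presenting dendritic cells, was higher, at 404, 505, 559 and 670 CPM, against 250, 225, 202 and 208 CPM in Ncr1-negative T cells (log2 fold change 1.12, SE 0.18, adjusted p = 6.15e-08). Ccl5 was lower (-0.96, SE 0.18, adjusted p = 9.60e-06), with adjusted p = 0.213 without control sample 1 and 0.0606 without control sample 2. Among genes of tissue retention and homing, S1pr5, Klf2, Itgal and Itga4 rose and Itgae and Itga1 fell. S1pr5 and Klf2 are genes of circulating lymphocytes, and their levels were low, with 11 UMIs of S1pr5 in 10 of 141 CD3-positive lymphocytes and 27 UMIs in 51498 Ncr1-negative T cells.

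The genes that fell furthest by the naming rule were mostly of low level. Lyz2, a myeloid lysozyme, had 0 UMIs in CD3-positive lymphocytes, against 36.1 to 77.1 CPM in Ncr1-negative T cells, which is at least 6.29-fold lower when 3 UMIs over the group are taken as the floor. Nr4a2, an immediate early nuclear receptor, had 0, 16.8, 8.60 and 0 CPM, against 51.7, 52.6, 88.8 and 70.2 CPM in Ncr1-negative T cells (log2 fold change -3.06, SE 0.59, adjusted p = 3.38e-05). Glp1r, the GLP-1 receptor, known from intraepithelial T cells, had 55.1, 25.3, 34.4 and 19.7 CPM, against 109, 123, 118 and 95.6 CPM in Ncr1-negative T cells (-1.94, SE 0.37, adjusted p = 2.00e-05). Frmd5 (-2.21) and Cela1 (-1.74) fell as well. Fabp1 and Rbp2, lipid carriers of enterocytes, also passed (-3.40 and -1.76), but neither did without the barcodes rich in markers of other cell types. Lyz2, Gm156, Glp1r and Cela1 kept their call in all 14 alternatives.

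Within the Ncr1-positive lymphocytes, CD3-negative barcodes were compared with CD3-positive ones of the same samples, to show what differs between Ncr1-positive lymphocytes with and without Cd3 RNA. Median Ncr1 UMIs per barcode were 2, 2, 3 and 2 in CD3-negative lymphocytes, against 2, 1, 1 and 2 in CD3-positive ones. Of 1120 genes tested, 55 were higher and 39 lower in CD3-negative lymphocytes, which is 4.91% and 3.48% (8.39% together); 181 passed at an unadjusted p below 0.05. DESeq2's Wald test called 21 genes, 59 were called without cystine sample 2, and 18 among lymphocytes with at least 2 Ncr1 UMIs. The higher genes included 9 lectin-like NK receptors, Prf1, S100a6 and Adgre5; the lower ones included T cell receptor genes, Cd8a, Itgae, granzymes A and B and Ccl5. Barcodes without Cd3 UMIs were chosen by chains of the T cell receptor complex, so the fall of its other chains is close to the rule itself. Not all of them fell: of 3 γδ constant genes tested, Trdc and Tcrg-C1 were lower and Tcrg-C4 did not pass. Tcrg-C4 had 385, 121, 297 and 425 CPM in CD3-negative lymphocytes, against 276, 295, 249 and 276 CPM in CD3-positive ones (log2 fold change -0.03, SE 0.27, adjusted p = 0.971, edgeR).

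Of 15 lectin-like NK receptor genes tested, 9 were higher in CD3-negative lymphocytes and 0 lower, with a median log2 fold change of 1.16 against -0.01 for all genes. Klra9 had 402, 329, 371 and 100 CPM in CD3-negative lymphocytes, against 55.1, 118, 68.8 and 78.8 CPM in CD3-positive ones (log2 fold change 1.80, SE 0.36, adjusted p = 9.32e-05). Klrc1 had 318, 433, 371 and 250 CPM, against 36.8, 185, 120 and 138 CPM in CD3-positive lymphocytes (1.42, SE 0.31, adjusted p = 0.000449). Klrk1 had 452, 555, 768 and 475 CPM, against 202, 362, 249 and 315 CPM in CD3-positive lymphocytes (0.92, SE 0.24, adjusted p = 0.00492; without control sample 1, adjusted p = 0.155). In each of these genes every sample had more in its CD3-negative lymphocytes, and in Klrc1 and Klrk1 the groups did not overlap.

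Klri2 (1.64), Klra8 (1.34), Klrg1 (1.24), Klra3 (1.22), Klra4 (1.22) and Klrb1b (SE 0.31, adjusted p = 0.0262) were the other 6 that passed; without cystine sample 2, Klri2 (adjusted p = 0.0954) and Klra8 (adjusted p = 0.121) did not. DESeq2's Wald test, at like fold changes, did not call Klra9 (adjusted p = 0.0959), Klrc1 (0.124), Klri2 (0.148), Klra8 (0.176) or Klrk1 (0.293). Klrb1c was at 0.61 (SE 0.21, adjusted p = 0.0528), with 553, 693, 941 and 626 CPM in CD3-negative and 331, 396, 413 and 670 CPM in CD3-positive lymphocytes, and passed without control sample 2 (adjusted p = 0.0119). Klre1 (0.68, SE 0.26, adjusted p = 0.0978), Klra7 (0.55, SE 0.32, adjusted p = 0.443) and Klrd1 (0.17, SE 0.15, adjusted p = 0.674) did not pass. None of the 10 adaptor and signalling genes tested passed, Fcer1g, Tyrobp and Cd160 among them.

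Prf1 was higher in CD3-negative lymphocytes, at 586, 814, 619 and 676 CPM, against 110, 253, 94.6 and 670 CPM in CD3-positive ones (log2 fold change 1.42, SE 0.26, adjusted p = 1.64e-05). Gzma was lower, at 12058, 14036, 8668 and 11809 CPM, against 27673, 18630, 13348 and 17413 CPM (-0.79, SE 0.09, adjusted p = 3.98e-11). Gzmb was lower, at 3014, 1386, 1412 and 2327 CPM, against 4171, 2847, 2769 and 3703 CPM (-0.85, SE 0.11, adjusted p = 1.61e-09). Ccl5 was lower too (-0.70, SE 0.08, adjusted p = 1.04e-10). Among lymphocytes with at least 2 Ncr1 UMIs the call was lost for Gzma, Gzmb, Ccl5 and Prf1, at log2 fold changes of -0.40, -0.30, -0.35 and 0.96; that of Prf1 was also lost with no block for the sample (1.35, adjusted p = 0.0546).

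**Figure D3:**
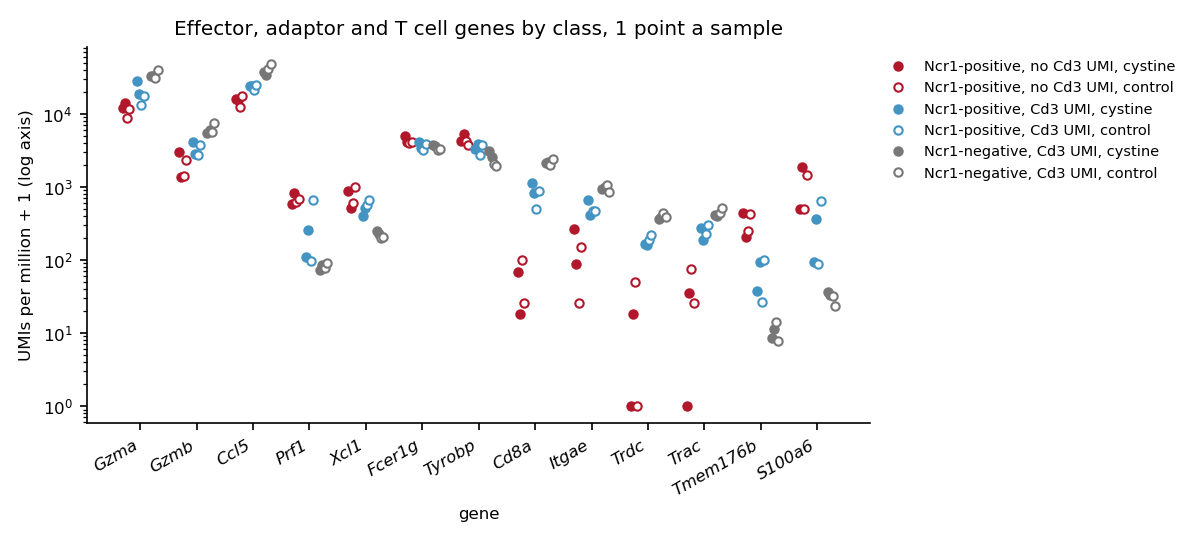
Each point is the level of a gene in 1 sample, in CPM plus 1 on a log axis, for the same 3 classes and 2 diets. Gzma, Gzmb, Ccl5, Cd8a, Itgae, Trdc and Trac are on average lowest in CD3-negative lymphocytes and highest in Ncr1-negative T cells, and Prf1, Tmem176b and S100a6 run the other way.

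S100a6, a calcium-binding protein of migrating effector lymphocytes, had 502, 1872, 495 and 1476 CPM in CD3-negative lymphocytes, against 91.9, 362, 86.0 and 650 CPM in CD3-positive ones (log2 fold change 1.95, SE 0.22, adjusted p = 3.69e-12). Adgre5, which encodes CD97, had 218, 277, 396 and 175 CPM, against 18.4, 59.0, 77.4 and 78.8 CPM (2.12, SE 0.41, adjusted p = 7.09e-05). Both genes were higher in every sample and kept their call, S100a6 in 15 alternatives and Adgre5 in the 14 that tested it. Tmem176b, a channel-like protein abundant in group 3 innate lymphoid cells and myeloid cells, had 435, 208, 248 and 425 CPM, against 36.8, 92.6, 25.8 and 98.5 CPM (2.16, SE 0.38, adjusted p = 9.15e-06), in 20 of 118 and 11 of 141 barcodes; among lymphocytes with at least 2 Ncr1 UMIs it was at 1.35 (adjusted p = 0.299). Of the 3 genes tested from the list for group 3 innate lymphoid cells, Tmem176b passed and Ltb and Tox did not. Of these 3, 1 had a log2 fold change above 0, and their median was -0.03 against -0.01 for all genes. The actin-binding genes Flna (1.72) and Ahnak (1.57), the integrin gene Itgal (1.67), Gadd45g (2.20) and Cma1 (1.79) also passed. Itgal did not pass without control sample 1, control sample 2 or cystine sample 2, nor Flna without cystine sample 1 or Ahnak without cystine sample 2.

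Tnf showed the largest fold by the rule (3.94, SE 0.72, adjusted p = 2.04e-05), but it rests on few barcodes. It had 42 UMIs in 6 of 118 CD3-negative lymphocytes, 24 of them in 1 barcode of control sample 1, against 4 UMIs in 4 of 141 CD3-positive ones. Ccl4 (1.07, SE 0.30, adjusted p = 0.0111) likewise had 84 of its 168 UMIs in 1 CD3-negative barcode of cystine sample 1, and without that sample its log2 fold change was -0.33. Of 8 dissociation and heat shock genes tested, 2 were called higher, against 4.91% of all genes tested. They were the immediate early genes Junb (1.10, adjusted p = 0.00113) and Zfp36, which respond to tissue dissociation as well as to activation. Log2 fold changes were above 0 in 7 of the 8, with a median of 0.45 against -0.01 for all genes. Junb did not pass with DESeq2's Wald test (adjusted p = 0.151) or with at least 2 Ncr1 UMIs (0.60, adjusted p = 0.424). The summed level of that list was 6630 to 9791 CPM in CD3-negative lymphocytes and 5521 to 8768 CPM in CD3-positive ones, and its part in the results was not tested.

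Cd8a fell in CD3-negative lymphocytes, with 67.0, 17.3, 99.1 and 25.0 CPM, against 1139, 834, 499 and 867 CPM in CD3-positive ones (log2 fold change -4.11, SE 0.34, adjusted p = 2.83e-18). It was seen in 7.63% of CD3-negative lymphocytes and in 7.66% of B cells. Trdc had 0, 17.3, 49.5 and 0 CPM, against 165, 160, 189 and 217 CPM in CD3-positive lymphocytes (-3.46, SE 0.67, adjusted p = 6.53e-05), and Trac had 0, 34.7, 74.3 and 25.0 CPM, against 276, 185, 224 and 295 CPM (-2.96, SE 0.51, adjusted p = 6.76e-06). Itgae had 268, 86.6, 24.8 and 150 CPM, against 662, 413, 464 and 473 CPM (-2.01, SE 0.30, adjusted p = 1.82e-07). These 4 genes kept their call in every alternative in which they were tested, and in none of them did the classes overlap.

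The other genes that fell were Ikzf2 (-1.65), a transcription factor of unconventional T cells, Cd200r1 (-1.76) and Itga1 (-1.40), both used as marks of tissue-resident group 1 innate lymphoid cells, Lag3 (-1.38), an inhibitory receptor, and Dtx1 (-1.80), Actn2 (-1.59) and Epcam (-2.23). Other genes of group 1 innate lymphoid cells did not fall: Tbx21 was higher (1.11) and Cxcr6 did not pass (0.55, SE 0.30, edgeR adjusted p = 0.389). Itga1 is also a gene of Ncr1-negative T cells, which had 391 to 539 CPM of it. Epcam, an epithelial adhesion molecule, was seen in 5.93% of CD3-negative lymphocytes, 19.1% of CD3-positive ones and 2.74% of B cells. Of its 58 UMIs in CD3-positive lymphocytes, 28 stood in 1 barcode. Itga1 did not pass without cystine sample 1 (adjusted p = 0.161), nor Dtx1 without control sample 1 (adjusted p = 0.107). DESeq2's Wald test did not call Cd200r1, Lag3, Ikzf2, Actn2 or Epcam.

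**Figure D4:**
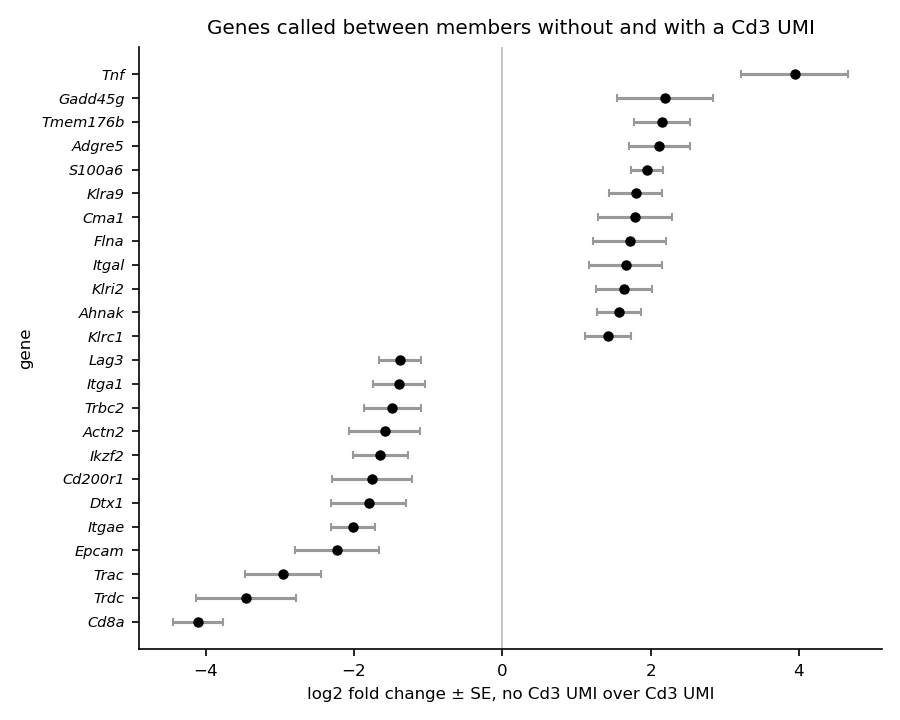
Points give the log2 fold change of CD3-negative over CD3-positive lymphocytes for the 24 genes named by rule, with bars of 1 standard error, from edgeR with the sample as a block. The 12 higher genes run from Klrc1 (1.42) to Tnf (3.94) and the 12 lower ones from Lag3 (-1.38) to Cd8a (-4.11).

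Transcription factors that define the innate lineages were sparse. Tbx21, which encodes T-bet, the factor of NK cells and group 1 innate lymphoid cells, was seen in 34 of 118 CD3-negative and 28 of 141 CD3-positive lymphocytes. It had 201, 295, 198 and 250 CPM in CD3-negative lymphocytes, against 129, 92.6, 51.6 and 177 CPM in CD3-positive ones (log2 fold change 1.11, SE 0.37, adjusted p = 0.0460), a call lost in 10 of 14 alternatives, among them the omission of control sample 1 and of either cystine sample. Eomes, the NK cell factor, was seen in 6 CD3-negative and 9 CD3-positive lymphocytes and in 47 of 51498 Ncr1-negative T cells. In the CD3-positive class it was higher than in Ncr1-negative T cells (log2 fold change 5.42, SE 0.93, adjusted p = 1.26e-06; without control sample 2, adjusted p = 0.0933).

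Il22 and Il23r, genes of group 3 innate lymphoid cells, were each seen in 1 CD3-negative lymphocyte of control sample 2 and in 0 CD3-positive ones, which allows a UMI in up to 2.13% of CD3-positive barcodes and says nothing of cells that express these genes at a low level. Il7r, the interleukin-7 receptor of innate lymphoid cells other than NK cells, was seen in 18 CD3-negative (15.3%) and 18 CD3-positive (12.8%) lymphocytes, against 4.35% of Ncr1-negative T cells and 0.783% of B cells. Kit, the stem cell factor receptor, was seen in 13 CD3-negative and 23 CD3-positive lymphocytes, and Ly6a (Sca-1) in 3 and 2. Ifng, the main cytokine of NK cells, was seen in 8 CD3-negative and 3 CD3-positive lymphocytes.

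Ncr1-positive lymphocytes made up 0.337% and 0.489% of kept barcodes in the cystine samples, against 0.410% and 0.286% in the control samples. The groups overlapped. The log2 ratio of their means was 0.25 (two-sided exact permutation test, p = 0.667; with these 4 samples the smallest possible p is 0.333). Without cystine sample 2 the log2 ratio was -0.05. CD3-negative lymphocytes alone made up 0.201% ± 0.00584 of kept barcodes on the cystine diet and 0.143% ± 0.00915 on the control diet (SD, n = 2 each), a log2 ratio of 0.49 with both cystine samples above both control samples and the smallest possible exact permutation p of 0.333. This denominator was chosen after the values were seen. Without Scrublet doublets, CD3-negative lymphocytes were 26 of 16324 and 31 of 14379 kept barcodes in cystine samples 1 and 2. In control samples 1 and 2 they were then 23 of 14563 and 21 of 13483. Over kept barcodes without Cd79a or Siglech, the genes of B cells and plasmacytoid dendritic cells, the log2 ratio of all Ncr1-positive lymphocytes was 0.48 (exact permutation p = 0.333). CD3-negative lymphocytes formed 58.5% and 42.0% of the Ncr1-positive lymphocytes in the cystine samples, against 33.3% and 52.3% in the control samples. The means of these shares differed by 7.42 percentage points (exact permutation p = 0.667). The difference was -2.05 points without control sample 1 and -0.83 without cystine sample 1.

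**Figure D5:**
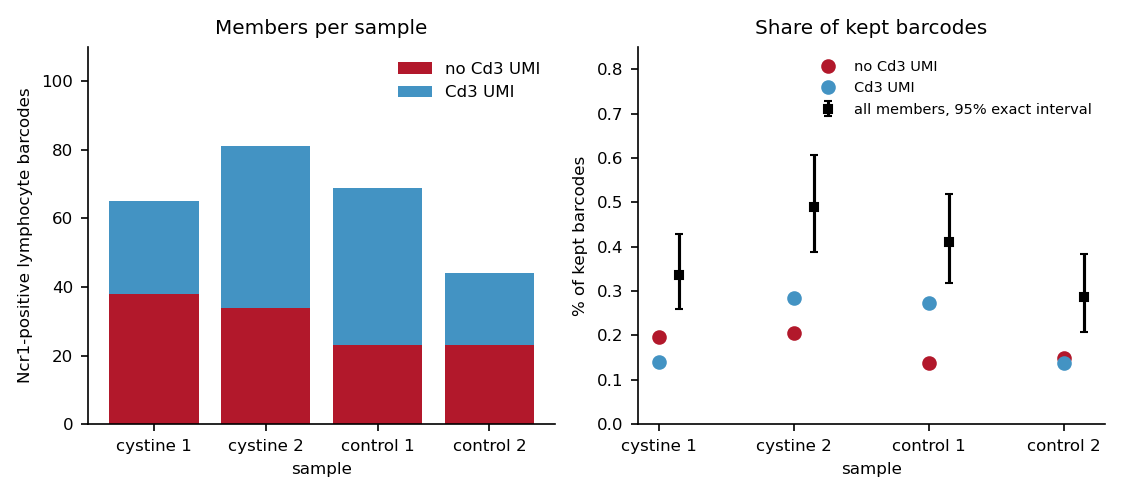
The left panel plots the number of Ncr1-positive lymphocyte barcodes per sample, split by Cd3 UMIs; the right panel plots their percentage of kept barcodes, with exact 95% binomial intervals for all members (squares). Members number 65 and 81 in the cystine samples and 69 and 44 in the control samples, and the intervals of the 2 diets overlap.

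The diets were compared over all Ncr1-positive lymphocytes, and in each kind, the question of the series being how dietary cysteine acts on the intestine through its immune cells. Over all members 2 of 2320 genes were higher on the cystine diet and 0 lower (0.0862% and 0.00%), with 123 genes at an unadjusted p below 0.05 and 1 gene called by DESeq2. Both are genes of Paneth cells of the crypt. Defa24, an antimicrobial α-defensin, had 315 and 623 CPM in the cystine samples, against 6.38 and 0 CPM in the control samples (log2 fold change 6.58, SE 0.67, adjusted p = 4.50e-05). AY761184, another α-defensin transcript, had 105 and 181 CPM in the cystine samples, against 0 and 0 CPM in the control samples, at least 12.5-fold higher with a floor of 3 UMIs over the control group (adjusted p = 0.00674).

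Ncr1-negative T cells carried the same difference, with 292 and 581 CPM of Defa24 in the cystine samples, against 1.27 and 4.50 CPM in the control samples. Defa24 was seen in 10 CD3-negative and 16 CD3-positive Ncr1-positive barcodes, with at most 29 of its 62 UMIs and 24 of its 85 UMIs in 1 barcode. In CD3-positive lymphocytes alone Defa24 was the 1 gene of 1472 that was higher (5.96, SE 0.63, adjusted p = 6.89e-06; 0.0679%), with 57 at an unadjusted p below 0.05. In CD3-negative lymphocytes 0 of 782 genes passed (0.00%) by edgeR and 0 by DESeq2, with 50 at an unadjusted p below 0.05; the lowest adjusted p was that of Cd74, the invariant chain of antigen presentation, at 787 and 641 CPM in the cystine samples, against 149 and 75.1 CPM in the control samples (2.70, SE 0.39, adjusted p = 0.0517). In cystine sample 2, 32 of its 37 UMIs stood in 1 barcode. Defa24 did not pass in CD3-negative lymphocytes, at 218 and 849 CPM in the cystine samples, against 0 and 0 CPM in the control samples, which is at least 14.1-fold higher with the same floor (adjusted p = 0.361). Ncr1-negative T cells had 849 and 327 CPM of Cd74 on the cystine diet, against 321 and 161 CPM on the control diet.

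None of these lymphocyte gene lists held a gene that passed between the diets. Of 16 lectin-like NK receptor genes tested over all members, 14 cytotoxic genes, 5 cytokine genes, 10 genes of cystine uptake and glutathione, 4 genes of the ATF4 amino acid response and 9 interferon response genes, 0 passed. Klrk1 was at -0.03 (SE 0.25, adjusted p = 0.995), Klrb1c at -0.36 (SE 0.22, adjusted p = 0.942), Prf1 at -0.09 (SE 0.34, adjusted p = 0.990) and Gzma at 0.41 (SE 0.15, adjusted p = 0.764). Leaving out 1 sample leaves its diet with a single library, assumed to vary like the other group, and the number of calls was then different: without control sample 2 there were 46, without cystine sample 1 37, without cystine sample 2 31 and without control sample 1 0. In CD3-negative lymphocytes alone the counts without 1 sample were 4 to 19, against 0 with all 4, and in CD3-positive ones 3 to 42, against 1.

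The diet effect was also tested for a difference between the 2 kinds of lymphocyte. Of 1120 genes, 1 passed (0.0893%): Gzmc, a granzyme, whose diet effect was lower in CD3-negative than in CD3-positive lymphocytes (difference of log2 fold changes -3.15, SE 0.56, adjusted p = 0.0295). It had 268 and 17.3 CPM in CD3-negative lymphocytes of the cystine samples, against 545 and 325 CPM in those of the control samples, and 1250 and 33.7 CPM in CD3-positive lymphocytes of the cystine samples, against 198 and 256 CPM in those of the control samples. Of the 68 UMIs in CD3-positive lymphocytes of cystine sample 1, 63 stood in 1 barcode, and without the barcode with the most UMIs of each gene, in each sample and class, 0 genes passed, Gzmc not being among the genes tested there. Gzmc was at -1.85 without cystine sample 1 and -2.52 without control sample 1, and passed in neither. Without cystine sample 1, cystine sample 2 or control sample 2, 5, 5 and 6 genes passed.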

How the data were processed

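Gene expression of sorted CD45+ cells was measured in 4 droplet libraries. As deposited by the authors, the values are raw UMI counts of 32285 genes in each barcode. Per the submitters' processing notes the genome build was GRCm39 and the tools Seurat 4.0.1 and Cell Ranger 3.1.0, whereas the file headers name Cell Ranger 7.0.1. How reads fitting several genes were counted is not given in the sources used here.

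From the counts, barcodes of 300 genes or more, with no more than 10% of UMIs mitochondrial, were kept, and members were found by the rule in the report. The members and the 25 gene lists were chosen with earlier results of these data known. UMIs were summed per sample and class and tested with edgeR 4.0.16 (R 4.3.3): filterByExpr, TMM, glmQLFit and glmQLFTest, Benjamini-Hochberg adjustment over all genes tested, threshold 0.05. The 8 genes of the rule were left out. The sample was a block in comparisons within samples, and diets were compared without a block. Standard errors were computed from the log2 fold change and its F statistic. The gene-wise edgeR tests were tried on simulated counts. Alternatives were DESeq2 1.42.0 (Wald test, size factors), no filter on low counts, stricter barcodes, Scrublet (scanpy 1.11.5), at least 2 Ncr1 or Cd3 UMIs, depth limits and leaving out each sample; alternatives without single barcodes, without barcodes rich in markers of other cells, and for CD3-negative lymphocytes over kept barcodes were added after the data were seen.

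Genes were named by rule: past the threshold, of 1 sign in every sample, at least 50 CPM on average in 1 group, the 12 largest each way (8 for diet), with list members and a set of NK, T cell and innate lymphoid genes. Depth limits precision: the 4 samples held 27229695 to 31301936 UMIs. The labels do not say whether replicate numbers pair samples. Deviations from group means of samples sharing a number had a correlation of -0.00725 across 2324 genes. With 2 samples in a group the deviations mirror each other, so this is 1 value and cannot show whether samples were paired. Results on some genes, and 1 planned comparison that needs such a gene, are not reported here.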

Additional observations from a re-analysis of the deposited data

Results flagged for a closer look

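The diet effect on Gzmc differed between CD3-negative and CD3-positive lymphocytes, by -3.15 on the log2 scale (edgeR's quasi-likelihood interaction test, SE 0.557, adjusted p = 0.0295). Of its UMIs, 63 of 68 in CD3-positive lymphocytes of cystine sample 1 and 22 of 22 in CD3-negative lymphocytes of control sample 1 stood in single barcodes; their part in the result was not tested. In 4 further genes the difference in CPM, CD3-negative minus CD3-positive, had one sign in both cystine samples and the other in both control samples; these differences between the diets were not tested. For Cd244a, an NK receptor of the SLAM family, it was -188 and -131 CPM in the cystine samples, against 39.2 and 19.2 CPM in the control samples, which is -188.7 CPM between the diets. For Ikzf3, the transcription factor Aiolos, it was -236 and -88.8 CPM, against 14.4 and 74.5 CPM in the control samples, which is -207 CPM. For Prdx1, a peroxiredoxin, it was 423 and 230 CPM, against -118 and -133 CPM in the control samples, which is 452.4 CPM. For Ccl4, a chemokine, it was 2113 and 14.2 CPM, against -105 and -2.14 CPM in the control samples, which is 1117 CPM, with 84 of 168 CD3-negative UMIs in 1 barcode of cystine sample 1.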

How the results depend on the processing

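Counts of genes called moved with the processing. Between CD3-negative and CD3-positive lymphocytes 94 genes passed, against 21 with DESeq2's Wald test, 50 with at least 800 genes per barcode, 53 without Scrublet doublets, 18 with at least 2 Ncr1 UMIs, 60 with at least 1500 UMIs, 35 with no replicate block and 59 to 76 without 1 sample. Between CD3-positive lymphocytes and Ncr1-negative T cells 242 passed, against 122 with the Wald test, 159 with no replicate block and 101 to 195 without 1 sample. Between diets 2 passed over all lymphocytes, against 1 with the Wald test, 51 with no low count filter, 1 each with at least 800 genes, without doublets, with at least 2 Ncr1 UMIs and without the top barcode of each gene, 5 without barcodes rich in other cell types, 2 with the replicate block and 0 to 46 without 1 sample. In CD3-positive lymphocytes 1 passed, against 41 with no filter, 0 with the replicate block and 3 to 42 without 1 sample. In CD3-negative ones 0 passed, against 1 with at least 800 genes, 1 with at least 2 Ncr1 UMIs, 0 with the replicate block and 4 to 19 without 1 sample. The interaction had 1, against 0 with the Wald test and without the top barcode, 4 with no filter, 3 with at least 800 genes, 4 without doublets, 4 with at least 2 Ncr1 UMIs, 2 without barcodes rich in other cell types and 1 to 6 without 1 sample. The log2 ratio of shares was 0.24 with the replicate block and -0.048 to 0.53 without 1 sample, and the CD3-negative share differed by 7.42 points with the block and by -2.05 to 16.9 points without 1 sample, -0.83 without cystine sample 1. Single genes reversed as follows. Ccl4 was at -0.28 with at least 800 genes and from -0.33 (without cystine sample 1) to 1.52 without 1 sample. Against Ncr1-negative T cells, under the Wald test, at least 2 Ncr1 UMIs, without control sample 1 and without the top barcode, Mcpt1 was at -0.54, -1.53, -1.79 and -1.81 and Mcpt2 at -1.86, -10.97, -11.39 and -10.44; Mcpt2 was at -8.86 without barcodes rich in other cell types. Without control sample 1 and without the top barcode, Reg3b was at -2.55 and -2.04, Reg3g at -12.81 and -2.66 and Krt8 at -2.29 and -0.93; Reg3g was at -5.95 and Krt8 at -0.68 under the Wald test, and Reg3g at -1.35 and Defa24 at 0.77 without barcodes rich in other cell types. Without cystine sample 2 these 5 were at 3.09 (Mcpt1), 2.94 (Mcpt2), 1.85 (Reg3b), 2.66 (Reg3g) and 2.81 (Krt8), the highest values without 1 sample. The cause was not tested.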

Other observations

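Variable genes of the δ and γ chains were also read, and were chosen after their values were seen. Trdv4, a variable segment of the δ chain, had 167, 260, 223 and 200 CPM in CD3-negative lymphocytes of cystine samples 1 and 2 and control samples 1 and 2, against 55.1, 84.2, 172 and 0 CPM in CD3-positive ones (log2 fold change 1.27, SE 0.41, edgeR adjusted p = 0.0366). It was seen in 26 of 118 CD3-negative lymphocytes, while Trdc was seen in 3 of 118, and in 22 of 141 CD3-positive ones, against 1.88% of Ncr1-negative T cells. Any variable gene of the γ chain was seen in 19.5% of CD3-negative and 66.0% of CD3-positive lymphocytes, and any of the β chain in 1.69% and 36.9%. Cma1, which encodes a mast cell chymase, was seen in 19 of 118 CD3-negative and 8 of 141 CD3-positive lymphocytes, against 3 UMIs in 51498 Ncr1-negative T cells. Ly6c2, a surface protein of effector lymphocytes, was higher in CD3-negative than in CD3-positive lymphocytes (1.90, SE 0.31, adjusted p = 1.58e-06), as was Lgals1, galectin-1 (1.38, SE 0.23, adjusted p = 4.17e-06).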
